A study of Mus musculus with 12 samples.

Results

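The motile cilium genes described here were 65 protein-coding mouse genes on chromosomes 1 to 19 whose symbols begin with Dnah, Dnaic, Cfap, Tekt, Rsph or Drc and a digit, out of 20661 protein-coding genes on those chromosomes in the RefSeq annotation of the mm10 build. They were chosen by symbol alone, with no measured value. They comprised 33 Cfap genes, 15 Dnah genes, 7 Rsph genes, 5 Tekt genes, 3 Drc genes and 2 Dnaic genes. Binding was mapped by CUT&RUN, an assay that frees the DNA around an antibody-bound chromatin protein with a tethered nuclease, in EpCAM+ lung epithelial cells of wild type C57Bl6 fetuses at E17.5, shortly before birth. Lungs of several fetuses were pooled, the epithelium was taken with EpCAM microbeads, and each reaction held 100000 cells. The antibodies were against the zinc finger factors PRDM16 (2 libraries, replicate 1 with a rabbit and replicate 2 with a sheep antibody) and PRDM3 (1 library), the lung epithelial homeodomain factor NKX2-1 (3 libraries) and H3K4me3, a histone mark of active and poised promoters (3 libraries). All libraries came from the same genotype with no treatment, and 3 libraries with control IgG were not analysed here. The labels do not say whether replicates came from separate pools, so each p-value below measures the spread between libraries, which may be technical.

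A motile cilium beats by the sliding of doublet microtubules that surround a central microtubule pair. Outer and inner dynein arms, whose heavy chains are the Dnah proteins, drive the sliding. Intermediate chains anchor the outer arm, radial spokes carry signals from the central pair, the nexin-dynein regulatory complex links neighbouring doublets, tektins run inside the doublet wall, and Cfap proteins fill many of the remaining places or help to assemble the dynein arms. In the lung these genes serve the multiciliated cells of the airway, where FOXJ1 and the RFX factors, which bind a motif called the X-box, are the known activators. Several members, such as Dnah8, Dnah17 and Tekt5, are known mainly from the sperm tail. The alveolar cells that make up most of the distal epithelium carry no motile cilia.

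The peak lists held 111440 and 79037 peaks for PRDM16, 52248 for PRDM3, 52685 to 79417 for NKX2-1 and 14638 to 19099 for H3K4me3. NKX2-1 replicate 1 stood apart from the other NKX2-1 libraries, because 76.4% of its peaks had a q-value under 0.05, against 10.8% in replicate 2 and 12.9% in replicate 3. The cells were checked with H3K4me3 on markers. An H3K4me3 region linked within 50 kb was found at 7 of 7 lung epithelium markers and 2 of 5 multiciliated markers. It was found at 1 of 4 endothelial, 2 of 4 mesenchymal and 0 of 4 immune and blood markers, beside 56.8% of all genes. Within 1 kb of a gene end the counts were 2 of 7 epithelial, 2 of 5 multiciliated and 0 of the other markers, beside 45.2% of all genes. The epithelial count therefore rested mostly on the 50 kb link. Distance was taken from the midpoint of a region, so a wide region over a gene start can miss the 1 kb limit. How many markers this affected was not tested. Read depth per library is unknown.

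All 65 genes had at least 1 linked peak in at least 1 of the 9 libraries. The share of all genes with a link in any library was not computed, so this count does not set the motile cilium genes apart. A link is a peak whose midpoint lay within 50 kb of the gene's end with no other protein-coding gene's end nearer. In the PRDM16 libraries 61 of 65 (93.8%) and 60 of 65 (92.3%) had one, against 82.8% and 73.1% of the other protein-coding genes. With PRDM3 the share was 70.8% (46 genes) against 68.5% of other genes. In the NKX2-1 libraries 51, 58 and 52 genes were linked (78.5%, 89.2% and 80.0%, mean 82.6% ± 5.82, SD, n = 3), against 69.6%, 72.5% and 78.5% of other genes. With H3K4me3 39, 37 and 32 genes were linked (60.0%, 56.9% and 49.2%, mean 55.4% ± 5.55, SD, n = 3), against 60.6%, 57.03% and 55.2%. All 6 libraries of the 3 factors therefore held a larger share of motile cilium genes than of other genes, and all 3 H3K4me3 libraries a slightly smaller share.

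The excess, defined as the percentage of motile cilium genes linked minus the percentage of other genes linked, was 11.0 and 19.2 points for PRDM16, 2.23 for PRDM3, 8.86, 16.7 and 1.54 for NKX2-1, and -0.638, -0.107 and -5.96 for H3K4me3. NKX2-1 exceeded H3K4me3 by 11.3 points, with no overlap between the libraries, and the exact two-sided permutation test over libraries gave p = 0.1, the smallest that 3 against 3 allows. PRDM16 minus NKX2-1 was 6.10 points with overlapping libraries (exact two-sided permutation p = 0.4, and 2 against 3 libraries cannot go below 0.1). The difference between NKX2-1 and H3K4me3 turned to -1.25 points (exact permutation p = 0.8) when only ends within 1 kb counted, and to -14.2 points (exact permutation p = 0.1) when every gene with an end within 50 kb was linked. It was 2.81 to 4.46 points, with exact permutation p of 0.2 to 0.6, for ends within 10 kb, 5′ ends alone, peaks of −log10 q 5 or more and peaks over the promoter.

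**Figure D1:**
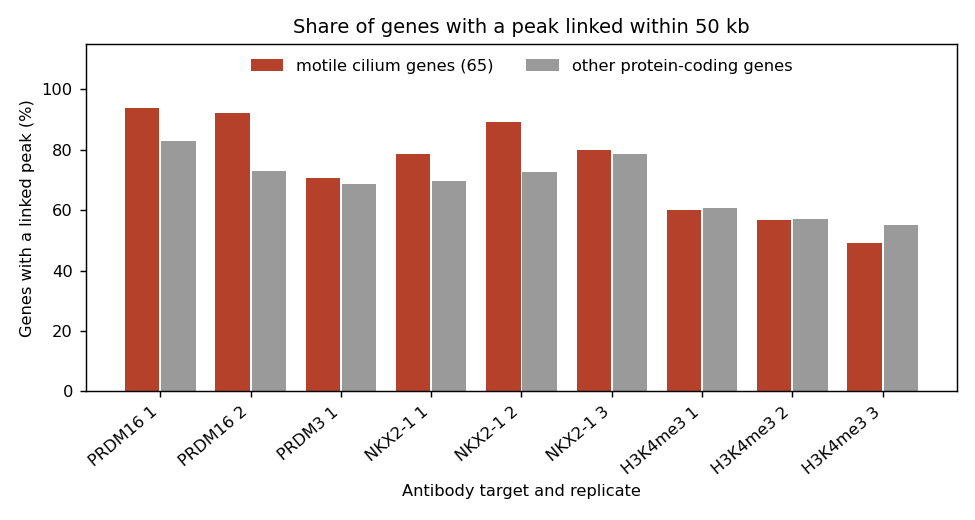
Percentage of genes (vertical axis) with at least 1 peak linked within 50 kb, in each of the 9 libraries (horizontal axis), for the 65 motile cilium genes (red bars) and the other protein-coding genes (grey bars). The red bar is higher in every PRDM16, PRDM3 and NKX2-1 library, from 1.54 points in NKX2-1 replicate 3 to 19.2 points in PRDM16 replicate 2, and lower in every H3K4me3 library.

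Replicated regions narrowed these sets. A region here is a stretch of at least 20 bases covered by peaks in both PRDM16 libraries, or in at least 2 of the 3 libraries of NKX2-1 or H3K4me3, while PRDM3 is represented by its 1 library. PRDM16 regions were linked to 51 of the 65 genes (78.5%), where 60.6% of all protein-coding genes had one. For PRDM3 the count was 46 (70.8%) beside 68.5% of all genes, for NKX2-1 33 (50.8%) beside 52.2%, and for H3K4me3 36 (55.4%) beside 56.8%. Counts for PRDM3, NKX2-1 and H3K4me3 thus lay near the share of all genes. The PRDM16 count lay above it, and it was 19 genes (29.2%), beside 25.6% of all genes, when peaks needed a −log10 q of 5 or more. With the 14000 strongest peaks of each library it was 14 (21.5%), beside 24.9%.

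Motile cilium genes were long, with a median length of 58075 bases against 17491 bases for all protein-coding genes. Of the 19 members of at least 100 kb, 16 (84.2%) had a PRDM16 region, beside 78.0% of all genes of that length. Of the 46 shorter members 35 (76.1%) had one, beside 58.4% of all genes under 100 kb. Within these groups the members were still longer, with medians of 249 kb against 172 kb and 33.7 kb against 14.4 kb. The split is therefore not matched for length. Across the 65 genes, length and the number of linked peaks had a Spearman rho of 0.41 for PRDM16, 0.30 for PRDM3, 0.45 for NKX2-1 and 0.01 for H3K4me3, a description over genes that share the same libraries.

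Within 1 kb of an end, PRDM16 peaks were linked to 43 genes (66.2%) in replicate 1 and 41 (63.1%) in replicate 2, against 56.5% and 50.3% of other genes. Regions covered in both libraries were found there at 30 genes (46.2%), beside 43.7% of all genes. On the single libraries PRDM16 minus NKX2-1 was then 16.9 points (exact two-sided permutation p = 0.1, the smallest that 2 against 3 allows). The count of genes with a region within 1 kb was 24 (36.9%) beside 42.9% for PRDM3, 21 (32.3%) beside 40.1% for NKX2-1 and 29 (44.6%) beside 45.2% for H3K4me3. Distance was again taken from the midpoint, so a wide H3K4me3 region over a gene start can be missed in these counts. Of the 126 PRDM16 regions linked to motile cilium genes, 27.8% lay within 1 kb of an end, against 32.8% of all linked PRDM16 regions.

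H3K4me3 was weaker and narrower at motile cilium genes than at other genes that carried it. The strongest linked peak had a median fold enrichment over background of 10.5, 15.1 and 15.4 in the 3 libraries, against 18.3, 36.8 and 30.9 over all linked genes. In ranks, the median percentile of that peak among all peaks of its library was 37.8, 28.8 and 28.4, against 65.4, 60.4 and 59.4 over all linked genes. Its median width was 819, 799 and 849 bases, against 1770, 1610 and 1511 bases. For the factors the gap in percentile was smaller or absent. The median percentile was 87.0 and 80.3 in the PRDM16 libraries against 86.6 and 79.6 over all linked genes. For PRDM3 it was 71.4 against 74.9, and for NKX2-1 it was 75.6, 77.7 and 75.4 against 79.7, 77.7 and 75.4. In NKX2-1 replicates 2 and 3 many genes shared the same fold, and the median fold was 3.26 and 3.20 in both groups. Medians tied in this way cannot show a small gap. Because whole epithelium was profiled, fewer cells carrying the mark and less mark per cell cannot be told apart.

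Among the 29 motile cilium genes with H3K4me3 peaks in all 3 libraries, 5 (17.2%) had the strongest peak above the 50th percentile in each library, against 51.8% of the 11041 protein-coding genes so linked. Those 5 were Cfap20, Cfap97, Cfap298, Dnah11 and Rsph3a. Cfap298, which helps to assemble dynein arms, had the highest fold of the list in replicates 2 and 3, at 57.2 and 45.3, with 24.0 in replicate 1. Cfap97 had 17.7, 48.7 and 35.0, and Cfap20, which sits at the junction of the doublet tubules, had 19.1, 37.9 and 29.1. Cfap53 and Cfap65 stayed below the 25th percentile in all 3 libraries. Cfap53, known for laterality and outer arm docking, had 4.69, 6.06 and 5.33, and Cfap65, known from the sperm tail, had 6.78, 9.73 and 8.93.

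**Figure D2:**
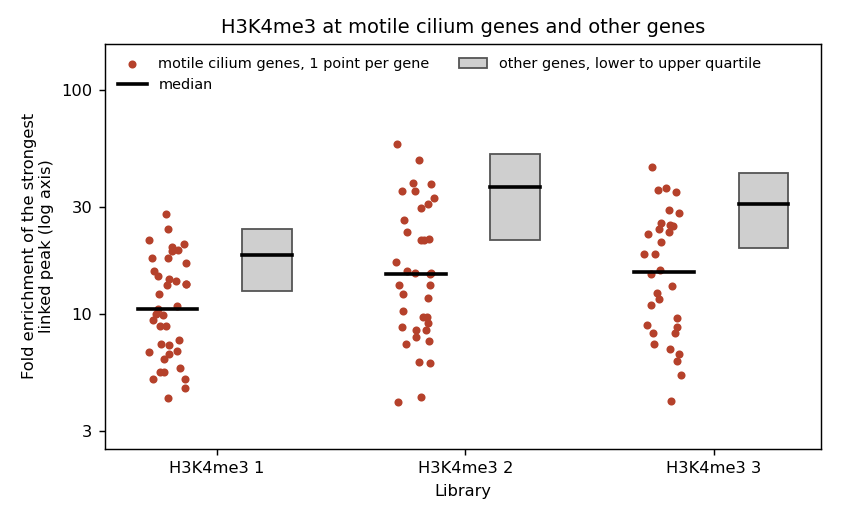
Fold enrichment (log axis) of the strongest linked H3K4me3 peak in each of the 3 H3K4me3 libraries (horizontal axis). Red points are single motile cilium genes with their median as a black line, and grey boxes span the lower to upper quartile of the other linked genes with their median as a black line. The motile cilium median, 10.5, 15.1 and 15.4, lies below the lower quartile of other genes, 12.6, 21.3 and 19.7, in every library.

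By role, the outer arm heavy chains of airway cilia come first. Dnah5, Dnah9 and Dnah11 each had regions of PRDM16, PRDM3, NKX2-1 and H3K4me3. These 3 genes are long, with a median of 321 kb. Among all genes of 100 kb or longer the shares were 78.0%, 88.7%, 69.4% and 70.8% in the same order, and 3 genes are too few to set against them. Dnah5, the main outer arm motor, had a strongest fold of 9.10 and 10.9 with PRDM16, 7.85 with PRDM3, 5.43, 3.64 and 3.20 with NKX2-1, and 7.30, 8.44 and 15.7 with H3K4me3. Its PRDM16 and PRDM3 peaks stood at or above the 94.5th percentile of their libraries, and its H3K4me3 peaks at or below the 28.9th. The H3K4me3 region of Dnah5, chr15:28158687-28159401, lay 4190 bases inside the annotated 5′ end. Dnah9, the outer arm motor of the distal cilium, had 8.08 and 9.03 with PRDM16, 3.89 with PRDM3, 4.04, 4.88 and 2.40 with NKX2-1, and 6.26, 6.08 and no peak with H3K4me3. Dnah11, the proximal outer arm motor, was weaker than Dnah5 with PRDM16 (6.45 and 5.45) and PRDM3 (3.39). With NKX2-1 it had 10.2 and 3.26 in replicates 1 and 2 and no peak in replicate 3. Its H3K4me3 folds of 16.9, 29.8 and 36.4 were above those of Dnah5. By mean percentile its PRDM16 peaks, at 87.1, still ranked above its H3K4me3 peaks, at 60.3.

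The heavy chains of the sperm outer arm had factor peaks with almost no H3K4me3. Dnah8 had 5.91 and 4.67 with PRDM16, 5.81 with PRDM3 and 7.83, 4.64 and 4.24 with NKX2-1, and an H3K4me3 peak in replicate 3 alone, at 7.34. Dnah17 had no H3K4me3 peak. Its PRDM16 fold differed between the libraries. A peak inside the gene, 27060 bases from its 5′ end, reached 22.5 in replicate 1, the 99.8th percentile, while the strongest linked peak of replicate 2 had 3.12. The 2 PRDM16 libraries were made with different antibodies, and the part of the antibody in that difference was not tested. Cfap77 showed the same split, with 23.1 in replicate 1 and 4.67 in replicate 2.

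Of the 10 inner arm heavy chains, 7 had a PRDM16 region (70.0%), 8 a PRDM3 peak (80.0%), 3 an NKX2-1 region (30.0%) and 3 an H3K4me3 region (30.0%). These genes are long, with a median of 203 kb, and among all genes of 100 kb or more the shares were 78.0%, 88.7%, 69.4% and 70.8% in the same order, so none of the 4 counts was above them. Dnah6 led the group, with 9.80 and 15.2 with PRDM16, 8.51 with PRDM3, 6.89, 4.07 and 6.39 with NKX2-1, and 9.91, 15.2 and 18.5 with H3K4me3. Dnah2 had 9.60 and 12.4 with PRDM16, 7.47 with PRDM3, 6.71, 2.44 and 2.40 with NKX2-1, and 17.7, 15.6 and 6.65 with H3K4me3. Its PRDM16 peaks stood at the 95.3rd and 99.3rd percentile, while its NKX2-1 peaks in replicates 2 and 3 stood at the 39.2nd and 36.4th. Dnah14 had 10.9 and 7.70 with PRDM16 and 4.64 with PRDM3, and an H3K4me3 peak of 5.48 in replicate 1 alone. Dnah3 had 13.6 and 4.9989 with PRDM16 and no peak with PRDM3 or H3K4me3. The rest were weaker: over Dnah1, Dnah10, Dnah12, Dnah7a, Dnah7b and Dnah7c the strongest PRDM16 fold ran from 2.87 to 4.90 in replicate 1 and from 3.12 to 4.74 in replicate 2. Dnah7a, Dnah7b and Dnah7c are near-identical copies, and how reads that map to several places were treated is not stated in the sources, so their separate values are uncertain. H3K4me3 was linked in all 3 libraries to Dnah7b, at 6.60, 15.1 and 8.72, and in none to Dnah7a and Dnah7c.

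The intermediate chains Dnaic1 and Dnaic2, which anchor the outer arm, had no linked PRDM16, PRDM3 or H3K4me3 region. Dnaic1 had an NKX2-1 region, with folds of 3.30, 3.26 and 3.97. In the nexin-dynein regulatory complex, Drc3 was strong in PRDM16 (10.9 and 8.55), PRDM3 (10.2) and H3K4me3 (27.9, 21.6 and 28.2). The strongest linked PRDM16 and PRDM3 peaks overlapped at chr11:60308261-60309573, 43964 bases from the 5′ end of Drc3. Drc3 starts 51 bases from Tom1l2, and peaks over its promoter had folds of 15.8 and 6.30 with PRDM16, 11.2 with PRDM3 and 11.2, 6.51 and 4.00 with NKX2-1, so signal of the 2 genes there cannot be told apart. Drc1 had a PRDM16 fold of 5.14 and 10.1 at chr5:30342978-30343428, 23492 bases inside its 3′ end, with 2.71 for PRDM3 and no NKX2-1 peak. Drc7 had no region of any target.

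Of the 7 radial spoke genes, 4 (57.1%) had a PRDM16 region, 4 a PRDM3 peak and 4 an H3K4me3 region. The shares of all genes were 60.6%, 68.5% and 56.8% in the same order, so none of these counts lay clearly above them. Rsph1, Rsph3a, Rsph3b and Rsph9 each had at least 1 region of PRDM16, of PRDM3 and of H3K4me3 within 1 kb of an end, and Rsph4a, Rsph6a and Rsph14 had no region of any target. Rsph3a had 14.3 and 12.2 with PRDM16, 7.07 with PRDM3, 13.5, 5.41 and 7.99 with NKX2-1, and 14.0, 35.3 and 35.7 with H3K4me3. Rsph3b had 14.0 and 7.83 with PRDM16, 8.99 with PRDM3, 9.86, 5.41 and 4.00 with NKX2-1, and 15.5, 38.3 and 25.0 with H3K4me3. The strongest factor peak of this pair stood at or above the 90.6th percentile in each library. They are close copies of each other, so the same uncertainty of mapping applies. Rsph4a, a spoke head gene of airway cilia, had 3 linked peaks in all, none above a fold of 4.05.

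All 5 tektin genes had a PRDM16 region, beside 60.6% of all genes, 4 a PRDM3 peak beside 68.5%, 2 an NKX2-1 region beside 52.2% and 3 an H3K4me3 region beside 56.8%. Tekt5, a sperm tektin, ranked first of the list by mean percentile with PRDM16 and with PRDM3. It had folds of 14.9 and 18.996 with PRDM16 and 11.8 with PRDM3, and had 9.96, 4.39 and 4.00 with NKX2-1. Its 61 linked peaks over the 9 libraries were the most of any member. H3K4me3 at Tekt5 was at 7.65, 13.4 and 12.4, between the 22.8th and 26.1st percentile. The strongest factor region, chr16:10349487-10350017, lay 8200 bases beyond the 3′ end of Tekt5, and no H3K4me3 peak overlapped it. Tekt3 had 6.45 and 5.60 with PRDM16 and 6.79 with PRDM3, with no H3K4me3 peak. Tekt1 had H3K4me3 of 13.6, 7.57 and 4.10.

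Among the 33 Cfap genes, PRDM16 regions were linked to 28 (84.8%, beside 60.6% of all genes), PRDM3 peaks to 23 (69.7%, beside 68.5%), NKX2-1 regions to 20 (60.6%, beside 52.2%) and H3K4me3 regions to 22 (66.7%, beside 56.8%). Cfap52, a protein of the doublet lumen, had PRDM16 folds of 11.5 and 11.8 and a PRDM3 fold of 7.85 at chr11:67946372-67947577, 18694 bases inside its 5′ end, while its NKX2-1 folds were 4.07, 2.19 and 2.40. Cfap54, of the central apparatus, had 12.9 and 8.61 with PRDM16, 4.07 with PRDM3, and 10.0, 13.4 and 11.7 with H3K4me3. Cfap126, also called Flattop, had 8 PRDM16 regions, with a strongest fold of 12.6 and 8.57, beside 7.39, 3.26 and 7.07 with NKX2-1 and 20.4, 35.3 and 25.4 with H3K4me3. Cfap45, another lumen protein, had 10.1 and 8.29 with PRDM16, 5.65 with PRDM3 and 7.29, 4.64 and 4.79 with NKX2-1. At the other end, Cfap73 had 2 linked peaks in all and Cfap97d1 had 1, a PRDM3 peak of 3.39.

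**Figure D3:**
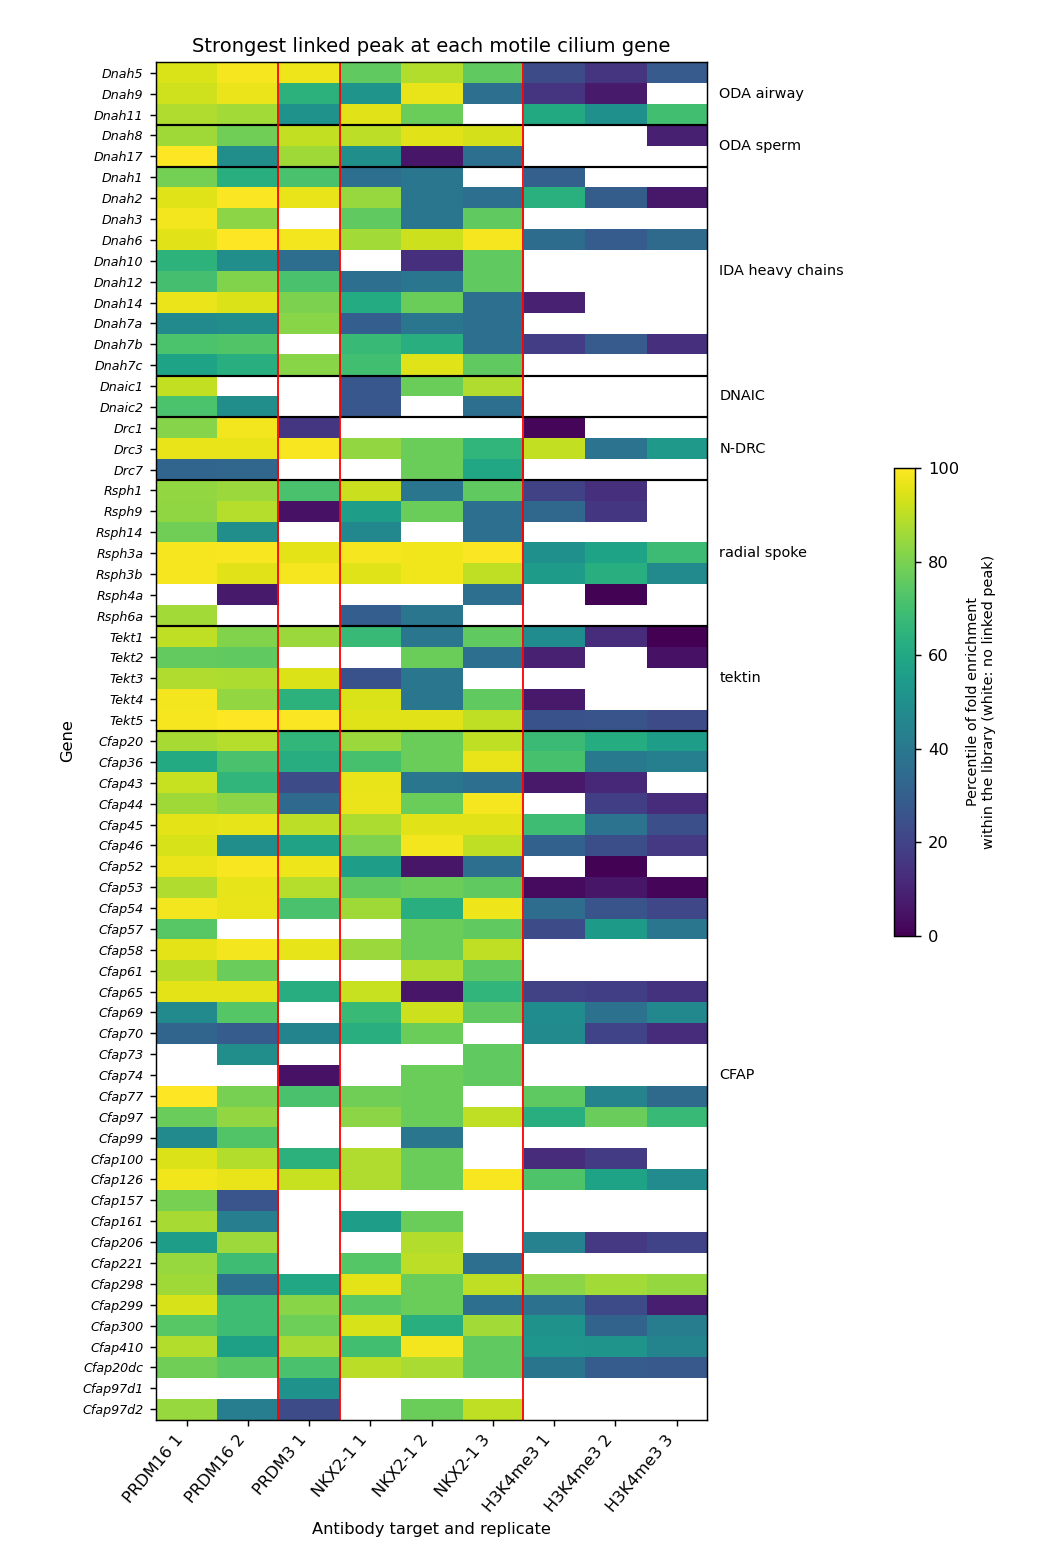
Each row is one of the 65 motile cilium genes, grouped by role on the right (ODA and IDA, outer and inner dynein arm; DNAIC, intermediate chain; N-DRC, nexin-dynein regulatory complex), and each column is 1 of the 9 libraries. Colour gives the percentile of the gene's strongest linked peak among all peaks of that library by fold enrichment, and white means no linked peak. The PRDM16 columns are mostly yellow and green, the H3K4me3 columns mostly blue or white, and Tekt5, Rsph3a, Rsph3b and Dnah6 are high with all 3 factors.

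Regions shared by all 3 factors, meaning an NKX2-1 region that overlapped both a PRDM16 region and a PRDM3 peak, were linked to 22 of the 65 genes (33.8%), beside 36.0% of all genes. There were 38 such regions, of which 44.7% lay within 1 kb of an end, against 58.2% of all linked shared regions. H3K4me3 peaks overlapped 27 of the 38 (71.1%), against 81.9% of all linked shared regions. Tekt5 had 4 shared regions, Cfap45, Cfap126 and Rsph3b had 3 each, and Cfap36, Cfap54, Dnah5, Dnah6, Dnah8, Rsph1 and Rsph3a had 2 each. The remaining 11 genes, Cfap20, Cfap20dc, Cfap53, Cfap58, Cfap61, Cfap298, Cfap300, Cfap410, Dnah9, Dnaic1 and Tekt4, had 1 each. At the shared region over the start of Rsph3a, chr17:7945568-7945916, the folds were 12.9 and 7.87 with PRDM16, 7.07 with PRDM3 and 13.5, 4.88 and 7.99 with NKX2-1. In Dnah5 the shared region at chr15:28179897-28180445, 25317 bases inside the 5′ end and free of H3K4me3, had 5.73 and 10.9 with PRDM16, 7.85 with PRDM3, and 5.43 and 3.20 in NKX2-1 replicates 1 and 3. These counts rested on NKX2-1 replicate 1: without it 17 genes had an NKX2-1 region, beside 31.8% of all genes, and 11 a shared region, beside 22.1%. A shared region is linked by the midpoint of its NKX2-1 stretch, so Dnaic1 has one although the overlapping PRDM16 and PRDM3 calls were linked to other genes.

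PRDM16 regions were also found at many motile cilium genes that had no linked H3K4me3 region. Of the 29 such genes 17 (58.6%) had a PRDM16 region, beside 27.7% of all protein-coding genes with no linked H3K4me3 region. Not all 29 lack the mark, because a promoter peak can be linked to a neighbour. Cfap52, Cfap61, Cfap99, Cfap221 and Dnaic1 had H3K4me3 peaks over their own promoter (below), and all of these but Dnaic1 had a PRDM16 region. These members were longer, with a median of 68.5 kb against 9.53 kb. By length the counts were 6 of 9 (66.7%) beside 45.5% at 100 kb or more and 11 of 20 (55.0%) beside 26.3% under 100 kb. Members were longer within both groups too, at 238 kb against 191 kb and 37.7 kb against 7.96 kb, so length was not matched. PRDM3 was linked to 16 of the 29 (55.2%) beside 41.7%, and NKX2-1 to 7 (24.1%) beside 15.3%. Of the 36 members with an H3K4me3 region, 34 (94.4%) had a PRDM16 region beside 85.6% of all such genes, and 26 (72.2%) an NKX2-1 region beside 80.4%. In all, 21 genes had a PRDM16 region with no NKX2-1 region, and 3 the opposite. Over all protein-coding genes PRDM16 regions were also the more common, at 60.6% against 52.2% for NKX2-1. The shares of all genes with 1 and not the other were not computed.

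Factor peaks with no linked H3K4me3 peak in any library were seen at 22 of the 65 genes. The share of all genes was not computed for this count, so it does not set these genes apart. Cfap58, known from the sperm tail, had the most PRDM16 regions among them, 8. Its strongest folds were 10.2 and 10.1 with PRDM16, 7.20 with PRDM3 and 6.71, 3.26 and 4.00 with NKX2-1, all at or above the 77.7th percentile. In NKX2-1 replicate 2 that percentile was also the median over all linked genes, so the 3.26 there was ordinary. The leading region, at chr19:47928962-47929917, lay 8272 bases upstream of the 5′ end. Cfap61 and Cfap221, of the radial spoke base and the central apparatus, had PRDM16 folds of 7.0033 and 4.63, and of 5.73 and 3.89. Both nevertheless had H3K4me3 peaks over the promoter that were linked to other genes. Their folds were 22.1, 40.1 and 25.6 for Cfap61 and 7.39, 9.73 and 12.4 for Cfap221. Cfap157 and Cfap161 had PRDM16 folds of 4.96 and 2.37, and of 6.30 and 3.11, with no PRDM3 peak.

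Linking to the nearest end can hand a promoter peak to a neighbour, so peaks that lay over the promoter itself were counted as well, a measure chosen after seeing the data. RefSeq promoter windows, 250 bases before to 50 after a gene's start in the GRCm38.p6 assembly, which is the mm10 build, were on hand for 55 of the 65 genes and 16456 protein-coding genes. PRDM16 peaks of both libraries lay over 28 windows (50.9%) beside 46.0% of all genes, PRDM3 peaks over 23 (41.8%) beside 41.9%, NKX2-1 peaks of at least 2 libraries over 20 (36.4%) beside 41.5%, and H3K4me3 peaks of at least 2 libraries over 31 (56.4%) beside 57.9%. Peaks of all 4 targets lay over 12 windows (21.8%, beside 29.0% of all genes). No peak of any library lay over 8 (14.5%, beside 32.7%), those of Cfap74, Cfap97d1, Cfap97d2, Dnah2, Dnah5, Dnah14, Dnah17 and Drc1. For Dnah5 and Cfap74 the windows lay well inside the gene. The Dnah5 window was chr15:28203516-28203815 and its annotated 5′ end is at 28154854. The Cfap74 windows began at chr4:155408940 and its annotated 5′ end is at 155392099. Peaks at the annotated 5′ ends of both genes were thus not counted by this measure.

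H3K4me3 lay over the windows of Cfap52, Cfap61, Cfap99, Cfap221 and Dnaic1, although no H3K4me3 region was linked to them by nearest end. Of these, Cfap52, Cfap61 and Dnaic1 start within 1 kb of another protein-coding gene, Stx8, Crnkl1 and Fam219a in that order, as do Drc3 (Tom1l2), Cfap57 (Ebna1bp2) and Cfap97d1 (Dusp3) among the other members. Over the Dnaic1 window the folds were 7.29 and 3.22 with PRDM16, 3.36 with PRDM3, 3.30, 3.26 and 3.97 with NKX2-1, and 13.5, 24.0 and 19.1 with H3K4me3. Over the Cfap61 window H3K4me3 was at 22.1, 40.1 and 25.6, and over the Cfap52 window at 20.3, 29.3 and 20.9. At such a start, signal of the 2 genes cannot be told apart. The 4 windows with PRDM16 peaks of both libraries but no H3K4me3 of 2 libraries, those of Cfap58, Dnah1, Dnah8 and Dnah12, made up 7.27%, beside 1.97% of all genes.

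**Figure D4:**
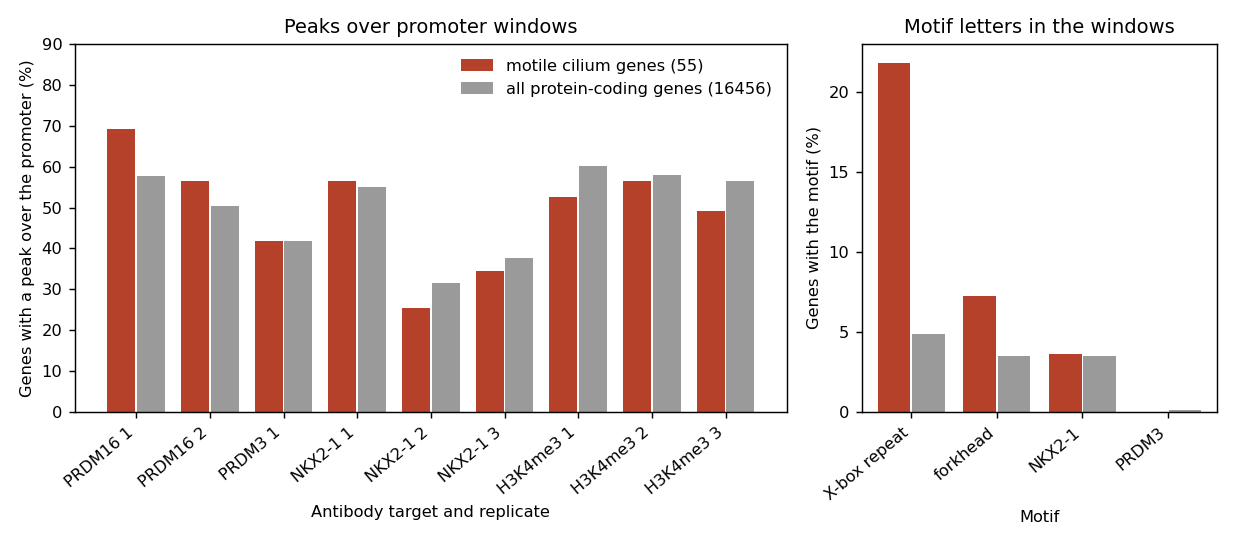
Left, percentage of genes (vertical axis) whose promoter window lay under a peak in each of the 9 libraries (horizontal axis), for 55 motile cilium genes (red) and 16456 protein-coding genes (grey). Right, percentage of the same genes whose window holds the exact letters of each motif. The X-box repeat, GTTGCCA on either strand, was at 21.8% of motile cilium genes and 4.87% of all genes. The other 3 motifs differed by less than 4 percentage points.

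The letters GTTGCCA, which form each side of the X-box palindrome, were present on either strand in the windows of 12 of 55 motile cilium genes (21.8%), beside 4.87% of all genes. They were Cfap20, Cfap44, Cfap58, Cfap74, Cfap97d2, Cfap161, Cfap298, Cfap300, Dnah7b, Dnah10, Drc1 and Tekt1, and 6 of the 12 had H3K4me3 over the window. Only exact matches were counted, so forms that differ in a letter, such as gttgcta in Dnah6, were left out. A window without a match is therefore not shown to lack an X-box. The forkhead letters TGTTTAC were in 4 windows (7.27%) beside 3.49%, the NKX2-1 letters CACTTGA in 2 (3.64%) beside 3.48%, and the PRDM3 letters GACAAGATA in 0 beside 0.115%. Windows of motile cilium genes had a median ratio of observed to expected CpG of 0.559, against 0.586 for all windows. The windows below are RefSeq sequences (GRCm38.p6) on the strand of the gene, 5′ to 3′, chosen because they carry the X-box letters under different peaks. Capitals mark GTTGCCA or its reverse complement TGGCAAC, and in Cfap20 also the forkhead letters in reverse, GTAAACA.
Cfap298: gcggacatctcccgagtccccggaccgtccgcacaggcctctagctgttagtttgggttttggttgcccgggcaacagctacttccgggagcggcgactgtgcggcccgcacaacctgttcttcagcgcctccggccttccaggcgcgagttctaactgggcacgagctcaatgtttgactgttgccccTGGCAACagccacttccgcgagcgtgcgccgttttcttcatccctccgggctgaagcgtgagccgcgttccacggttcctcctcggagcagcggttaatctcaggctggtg
Cfap20: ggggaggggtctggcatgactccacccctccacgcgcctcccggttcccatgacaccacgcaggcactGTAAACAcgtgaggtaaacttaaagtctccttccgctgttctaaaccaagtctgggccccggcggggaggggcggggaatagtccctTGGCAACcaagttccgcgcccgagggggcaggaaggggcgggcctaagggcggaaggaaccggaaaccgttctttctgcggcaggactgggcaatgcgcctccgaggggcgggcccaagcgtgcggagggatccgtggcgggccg
Cfap300: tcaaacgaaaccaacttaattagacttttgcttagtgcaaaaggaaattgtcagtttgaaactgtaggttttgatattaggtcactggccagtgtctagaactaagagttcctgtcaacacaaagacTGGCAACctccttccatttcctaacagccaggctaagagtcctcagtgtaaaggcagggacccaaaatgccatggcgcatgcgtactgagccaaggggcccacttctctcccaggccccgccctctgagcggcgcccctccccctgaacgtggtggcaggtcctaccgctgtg
Cfap44: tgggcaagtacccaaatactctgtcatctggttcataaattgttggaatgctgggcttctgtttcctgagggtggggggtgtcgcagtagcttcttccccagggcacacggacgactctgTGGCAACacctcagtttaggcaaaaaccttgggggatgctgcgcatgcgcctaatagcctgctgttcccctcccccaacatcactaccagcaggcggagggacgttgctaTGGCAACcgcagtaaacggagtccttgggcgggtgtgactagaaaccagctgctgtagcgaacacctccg
Tekt1: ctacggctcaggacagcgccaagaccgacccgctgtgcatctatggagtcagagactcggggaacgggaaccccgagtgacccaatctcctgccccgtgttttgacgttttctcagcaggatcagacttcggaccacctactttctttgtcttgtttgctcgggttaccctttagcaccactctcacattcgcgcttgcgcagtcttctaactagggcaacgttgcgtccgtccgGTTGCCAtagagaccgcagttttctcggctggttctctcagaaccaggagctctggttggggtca
Cfap58: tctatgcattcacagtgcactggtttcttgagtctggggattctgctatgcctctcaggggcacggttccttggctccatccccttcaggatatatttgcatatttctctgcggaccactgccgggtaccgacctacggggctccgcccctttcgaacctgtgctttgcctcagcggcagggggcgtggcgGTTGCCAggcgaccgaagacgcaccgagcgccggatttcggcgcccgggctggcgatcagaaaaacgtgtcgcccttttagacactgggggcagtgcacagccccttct
Drc1: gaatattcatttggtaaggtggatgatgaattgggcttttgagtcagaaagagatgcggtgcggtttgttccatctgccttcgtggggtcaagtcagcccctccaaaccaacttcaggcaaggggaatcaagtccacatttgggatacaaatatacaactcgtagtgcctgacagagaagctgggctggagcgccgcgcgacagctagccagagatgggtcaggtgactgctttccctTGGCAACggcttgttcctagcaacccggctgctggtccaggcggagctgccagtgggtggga

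The Cfap298 window (chr16:90934800-90935099 on the minus strand) holds the letters 61 bases before the start, under NKX2-1 peaks of 10.5, 3.26 and 4.00 fold and H3K4me3 peaks of 24.0, 57.2 and 45.3 fold. In Cfap20 (chr8:95434820-95435119 on the minus strand) they lie 95 bases before the start, under H3K4me3 of 19.1, 37.9 and 29.1 and PRDM16 of 4.43 and 3.99. The Cfap300 window (chr9:8042826-8043125 on the minus strand), of a dynein assembly gene, has them 123 bases before the start, with H3K4me3 of 14.3, 17.0 and 22.7, PRDM16 of 4.30 and 3.89 and PRDM3 of 4.48. Cfap44 (chr16:44394549-44394848 on the plus strand), which tethers an inner arm motor, has the letters at 2 places, the nearer 20 bases before the start, with PRDM16 of 5.93 and 5.05 and H3K4me3 of 9.73 and 8.24 in replicates 2 and 3. In Tekt1 (chr11:72361833-72362132 on the minus strand) they lie 15 bases before the start under H3K4me3 of 13.6, 7.57 and 4.10. Cfap58 (chr19:47937462-47937761 on the plus strand) has them 59 bases before the start under PRDM16 peaks of 6.40 and 4.14 and no other peak, and Drc1 (chr5:30281143-30281442 on the plus strand) 12 bases before the start under no peak of any library. A match of letters describes the sequence and does not show binding.

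The known regulators of these genes carried peaks as well. Foxj1, the forkhead activator of motile cilium genes, had strongest folds of 14.1 and 6.46 with PRDM16, 7.17 with PRDM3, 4.05 and 4.79 in NKX2-1 replicates 1 and 3, and 19.1, 23.1 and 17.2 with H3K4me3. Rfx2 had 12.4 and 6.39 with PRDM16 and 4.64 with PRDM3, with 8.09, 4.07 and 4.98 for NKX2-1. Rfx3 had 10.8 and 8.10 with PRDM16, 10.2 with PRDM3, 18.7, 3.30 and 5.59 with NKX2-1 and 22.9, 59.6 and 49.5 with H3K4me3. Of 8 regulators in the list (Foxj1, Rfx2, Rfx3, Mcidas, Gmnc, Myb, Ccno and Trp73), 7 had a PRDM16 region, beside 60.6% of all genes, 8 a PRDM3 peak beside 68.5%, 6 an NKX2-1 region beside 52.2%, 7 an H3K4me3 region beside 56.8% and 6 a shared region beside 36.0%. Gmnc had PRDM3 alone.

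A second list held 38 other motile cilium genes named outside the symbol rule, such as dynein assembly factors and docking and central apparatus proteins. PRDM16 regions were linked to 29 of them (76.3%), PRDM3 peaks to 30 (78.9%), NKX2-1 regions to 17 (44.7%), H3K4me3 regions to 20 (52.6%) and shared regions to 10 (26.3%), beside the shares of all genes given above. Ccdc40, which sets the spacing of inner arms and spokes, had 6 PRDM16 regions and no NKX2-1 region. Hydin, of the central pair, had PRDM3 peaks, the strongest at 2.62, with no region of PRDM16, NKX2-1 or H3K4me3. It also had linked PRDM16 peaks of 2.10 and 3.12 in replicates 1 and 2.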

How the data were processed

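CUT&RUN peak lists of 9 libraries from EpCAM+ lung epithelium were used as deposited, 1 list per library. Per the submitters' processing notes, Trimmomatic, Bowtie2, MACS2 and HOMER were used with the mm10 build; their versions, the treatment of multiply mapped reads and any control in peak calling were not stated in the sources used. The authors' deposited columns hold a score, a fold enrichment (ratio over background), −log10 p and −log10 q for each peak, and the offset of its summit. Read depth is unknown, so no counting interval is given, and the number of peaks per library limits the precision. Fold values are the authors' own and were used to rank peaks within a library.

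Peaks were linked by midpoint to the nearest annotated end of a protein-coding gene within 50 kb, and regions and shared regions (overlap of at least 1 base) were built as the results state. Analyses used Python 3.11.15, numpy 2.4.6, pandas 2.3.3 and scipy 1.17.1. Linking and region building were tested on simulated data. Libraries were compared with exact two-sided permutation tests. Genes named were all Dnah genes, the 6 with the highest mean percentile for each target, up to 6 with no linked H3K4me3 peak, all with shared regions, and Foxj1, Rfx2 and Rfx3. Other genes named (among them Cfap53, Cfap65, Cfap73, Cfap77, Cfap97d1, Drc1, Drc7, the remaining Rsph and Tekt genes, Ccdc40 and Hydin) were chosen after their values were seen. The members, gene lists and motifs were chosen with earlier results of these data known. Alternatives covered peak strength, link distance and rule, replication and overlap rules, single libraries, summits and replicate pairing. Libraries with the same replicate number were not taken as paired.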

Additional observations from a re-analysis of the deposited data

How the results depend on the processing

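The difference in excess between NKX2-1 and H3K4me3 kept its direction under 15 of 17 alternatives, and it reversed to -14.2 points with any gene end within 50 kb and to -1.25 points within 1 kb. It was 2.83 points with 5′ ends alone, 2.81 over the promoter window, 3.02 within 10 kb and 4.46 with peaks of −log10 q 5 or more. PRDM16 minus NKX2-1 kept its direction under all 16 run, but ran from 0.475 points (any gene end) to 16.9 (within 1 kb). It was 14.3 within 10 kb, 12.8 with non-coding genes among the ends, 11.4 over the promoter window, 9.64 with 5′ ends alone and 3.24 with the 14000 strongest peaks. With each replicate left out in turn the differences were 7.44 to 15.0 and 2.00 to 10.2 points. The numbers of genes with a region were then 60 and 61 for PRDM16, beside 73.1% and 82.8% of all genes. With 1 PRDM16 library left out, a region is any peak of the other, so these 2 counts are without replication. For NKX2-1 the numbers were 17 to 28 (beside 31.8% to 45.1%). They were 11 to 23 for shared regions (beside 22.1% to 39.6%) and 30 to 34 for H3K4me3 (beside 54.7% to 56.2%). The lowest NKX2-1 and shared counts were those without NKX2-1 replicate 1. In the following each count stands beside the share of all genes. With peaks of −log10 q 5 or more it was 19 (25.6%) for PRDM16, 11 (16.3%) for PRDM3, 3 (6.31%) for NKX2-1 and 1 (2.74%) for shared regions. With the 14000 strongest peaks it was 14 (24.9%), 22 (36.3%), 17 (30.8%) and 6 (13.1%) in the same order, and within 1 kb 30 (43.7%), 24 (42.9%), 21 (40.1%) and 14 (27.3%). With any gene end within 50 kb it was 61 (76.0%) for NKX2-1, 54 (64.4%) for shared regions and 64 (77.3%) for H3K4me3. Coverage in all 3 NKX2-1 libraries gave 14 (28.9%) for NKX2-1 and 11 (21.7%) for shared regions. Stricter lists hold fewer peaks by construction, and the cause of the 2 reversals was not tested. As a replicate block, the differences were 11.3 points (exact sign-flip p = 0.25) and 2.36 points (exact p = 0.5). Same-numbered NKX2-1 and H3K4me3 libraries had correlations of deviations of -0.09, -0.11 and 0.03, so the numbers do not pair them. For PRDM16 and NKX2-1 both same-numbered pairs were at 0.13 and both crossed pairs at -0.13, and 2 pairs do not settle a pairing. Weak peaks limit what can be said, since in every PRDM16 and PRDM3 library and in NKX2-1 replicates 2 and 3 most peaks had a q-value over 0.05.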
